A study of Mus musculus with 2 samples.

Results

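The nuclei described here are glutamatergic nuclei of mouse hippocampal tissue that were selected on their counts of Hs3st4 and Foxp2. A nucleus was taken when Hs3st4 and Foxp2 together had at least 20 UMIs (unique molecular identifiers, each standing for 1 captured RNA molecule) with both genes detected, and when it held at least 1 UMI of the vesicular glutamate transporter genes Slc17a7 and Slc17a6. It also had to hold at most 2 UMIs of the inhibitory markers Gad1 and Gad2, at most 3 UMIs of the granule cell genes Prox1, Dsp and C1ql2, fewer UMIs of the CA genes Cpne4, Iyd and Trps1 than of Hs3st4 and Foxp2, and no UMI of Trp73. In all, 1123 of 48103 nuclei (2.33%) met these terms. The levels of those genes therefore describe the choice and are not a result.

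Both libraries were made from the hippocampus of littermate mice at postnatal day 19. The control library pooled 1 hippocampus from each of 3 mice of genotype Cicflox/flox, and the other library, labelled knockout, pooled 1 hippocampus from each of 3 mice of genotype Emx1-Cre; Cicflox/flox. Each pool held 2 males and 1 female, and both carried the floxed alleles of Cic, so the genotypes differ by the Cre transgene. With 1 library per genotype there is no replicate error: no difference below was tested, every interval covers counting error only, and genotype, pool and library cannot be told apart.

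Hs3st4 encodes a heparan sulfate sulfotransferase and Foxp2 a forkhead transcription factor, and both mark excitatory neurons of the deep cortical layers, among them the corticothalamic and subplate-derived cells. Such neurons also lie in the subicular and adjoining cortex, which a hippocampal dissection can include. Cic encodes Capicua, a transcriptional repressor that acts with Ataxin-1 and its relative Ataxin-1-like. Receptor tyrosine kinase signalling through ERK relieves its repression, and its known targets include the ETS factor genes Etv1, Etv4 and Etv5 and feedback inhibitors of the same pathway. Emx1-Cre acts in progenitors of the dorsal telencephalon, which form the glutamatergic neurons of cortex and hippocampus, while inhibitory neurons and microglia arise elsewhere.

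The control library contributed 604 of its 25060 nuclei (2.41%, exact binomial 95% interval 2.22 to 2.61), and the library labelled knockout 519 of 23043 (2.25%, 2.06 to 2.45). The 2 intervals overlapped. The selected nuclei were deeper in the control, with a median of 20870 UMIs against 17177, and their summed UMIs were 13331121 and 9838332. Because the rule asks for a fixed number of UMIs, it was also applied after every nucleus had been thinned to 5000 UMIs with a minimum of 5 rule UMIs; the shares then became 1.36% and 1.81%, the opposite order. Nuclei were called female from Xist or male from 4 Y-linked genes. Among female nuclei, from 1 mouse per pool, the share was 2.17% (control) and 2.93% (labelled knockout), and among male nuclei, from 2 mice per pool, it was 2.83% and 2.06%. Of the selected nuclei with a call, 33.8% were female in the control and 49.0% in the other library, so the plot of named genes gives the sexes separately. The doublet caller marked 108 of the control nuclei (17.9%) and 61 of the others (11.8%). Mitochondrial UMIs were few, with a median of 0.0105% and 0.0210% per nucleus. The whole libraries held 314453640 and 252995761 UMIs, and shared 175 barcode sequences among 25907 and 23207 barcodes.

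Of the marker genes given for these nuclei, Zfpm2 and Fezf2 had close levels in the 2 libraries. Hs3st4 and Foxp2 were required by the rule at a fixed number of UMIs, so neither their presence nor their levels are a result. Levels are given as CPM, UMIs scaled to the same class total in each library, and of each pair of values the first is the control and the second the library labelled knockout. Hs3st4 had 3019 and 2892 CPM, and Foxp2 had 257 and 315. Zfpm2, encoding the transcriptional cofactor Fog2 and not part of the rule, had 1279 and 1249 CPM, against 718 and 700 CPM in all other glutamatergic nuclei. Fezf2, a selector gene of deep-layer neurons, had 24.9 and 23.4 CPM against 8.20 and 7.32 in the other glutamatergic nuclei, and was detected in 38.4% and 32.6% of the selected nuclei against 9.53% and 8.12%. Tle4, a corepressor of corticothalamic neurons, had 497 and 481 CPM against 142 and 125, and Sox5, a layer 6 transcription factor, had 858 and 1175 CPM against 294 and 472.

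Not every defining marker of the deep layers set the nuclei apart. Ntsr1, a gene much used to mark corticothalamic cells, had 1.95 and 3.56 CPM, close to the 1.71 and 3.54 CPM in the other glutamatergic nuclei, while Syt6 had 2.93 and 4.88 CPM against 1.20 and 1.37. Of the layer 6b and subplate markers, Ccn2 had 8.25 and 12.4 CPM against 1.46 and 1.95, Nr4a2 48.3 and 58.0 against 20.4 and 15.9, and Svil 65.6 and 78.4 against 22.3 and 17.7. Cplx3 and Nxph4 were also higher than in the other glutamatergic nuclei in both libraries, at 6 to 17 UMIs per library. Moxd1 was lower, with 1.73 and 2.34 CPM against 5.62 and 11.95. Trh had no UMI in either library, where a count of 0 allows up to 0.225 and 0.305 CPM, and 0.0412 and 0.0361 CPM in the other glutamatergic nuclei. Of the 6 genes known from near-projecting cortical neurons, Tshz2, Vwc2l, Htr2c, Nxph1 and Trhr were higher than in the other glutamatergic nuclei in both libraries: Tshz2 had 938 and 1205 CPM against 208 and 309, and Vwc2l 687 and 791 CPM against 68.9 and 112. Lypd1, with 50.2 and 35.8 CPM against 39.1 and 44.4, was lower than in those nuclei in the library labelled knockout alone, and Trhr had 21.4 and 26.4 against 8.96 and 22.8. Of the subicular markers, Cntn6 was higher, with 629 and 486 CPM against 66.2 and 85.3, as were Teddm3 and Nts, while Fn1 had 16.7 and 23.4 against 14.6 and 27.2 and Dlk1 0.750 and 1.63 against 1.42 and 1.14. The nuclei thus held markers of several deep-layer types and lacked some, and they are called here by the 2 genes that selected them. Nuclei just inside the minimum, with 20 to 24 rule UMIs, numbered 30 in the control and 35 in the other library and had a Tle4 level of 158 and 219 CPM; those just outside it, with 15 to 19, numbered 33 and 35 and had 78.1 and 171 CPM.

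**Figure D1:**
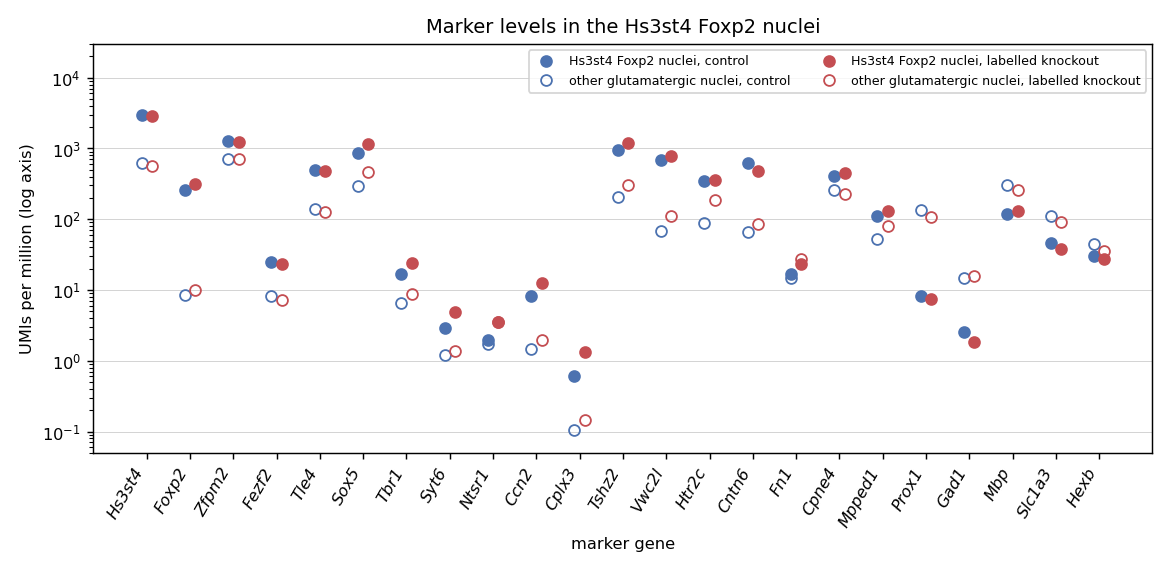
Marker levels in CPM (UMIs, log axis) for 23 genes; filled points are the Hs3st4 Foxp2 nuclei and open points all other glutamatergic nuclei, with the control in blue and the library labelled knockout in red. Tle4 and Sox5 lie above the other glutamatergic nuclei in both libraries, while Ntsr1 does not stand clear of them.

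Clustering of the 1123 nuclei, without the genes that differed at least 2-fold between the libraries and without sex-linked and mitochondrial genes, gave 13 groups. They are given by number and leading genes, which describe the groups and are not a result; the leading genes were read from all genes, so genes kept out of the clustering can be among them. Group 1 (Adamtsl1) was the largest, with 104 control nuclei and 58 from the library labelled knockout; it had 2581 CPM of Zfpm2 and 605 CPM of Foxp2. Group 2 (Grik1, Alk, Crybg1) combined 2983 CPM of Tshz2, 2522 CPM of Vwc2l and 2388 CPM of Cntn6, a contactin gene also used as a subicular marker. Group 8 (Npsr1, Htr2c, Col25a1) held the highest Htr2c level, 1945 CPM, and group 10 (Abi3bp, Gli2, Kcnh8) the highest Hs3st4 level, 4639 CPM. Group 7 (Col19a1, Pappa2, Col8a1) had the highest levels of Ccn2, 80.3 CPM, and of Moxd1, a further subplate marker, 16.4 CPM. Group 11 (Aox3, Arhgap6) had the highest Foxp2 level, 781 CPM, and the lowest Zfpm2 level, 109 CPM.

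Group 5 (Zfp804b, Ndst4, Pde11a) had the lowest level of Tle4, 37.8 CPM, against 279 to 838 CPM in the other 12 groups, with 190 CPM of Zfpm2 and 3.86 CPM of Tbr1. Its nuclei were the deepest, with a median of 27267 UMIs against 20870 and 17177 for the whole class in the control and the library labelled knockout. Groups 6, 9, 12 and 13 held most of the called doublets: 46.5%, 72.8%, 83.3% and 80.8% of their nuclei, against at most 5.38% in any other group. Group 9 was led by the astrocyte gene Slc1a3, group 12 by the myelin gene Mbp and group 13 by the microglial gene Inpp5d. These 4 groups had 146 control nuclei and 95 from the library labelled knockout.

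The makeup of the class differed between the libraries. Group 5 held 70 of the 604 control nuclei (11.6%, 9.15 to 14.4) and 23 of the 519 others (4.43%, 2.83 to 6.58). Group 1 held 17.2% (14.3 to 20.5) and 11.2% (8.60 to 14.2). In the other direction, group 3 (Meis2, Thsd7b, Dkk2) held 6.29% (4.49 to 8.53) of control nuclei and 13.5% (10.7 to 16.7) of the others. Group 7 held 4.97% (3.38 to 7.01) and 10.4% (7.91 to 13.4), and group 11 held 2.32% (1.27 to 3.86) and 7.13% (5.07 to 9.69). The counting intervals of these 5 groups did not overlap between the libraries. The sexes did not contribute alike: group 11 held 12.2% of female nuclei of the library labelled knockout and 2.45% of its male nuclei, against 3.33% and 1.70% in the control, and group 3 held 24.0% and 7.35% against 13.3% and 5.10%. For group 5 the shares were 4.67% and 2.55% among female nuclei and 15.0% and 5.88% among male nuclei, control first. For group 1 they were 22.0% and 8.67% among female nuclei and 17.0% and 17.2% among male nuclei, so it was lower in female nuclei alone. For group 7 they were 5.33% and 13.3%, and 4.42% and 11.3%. Whether fewer nuclei of a group were present, or a different part of the tissue was dissected, cannot be told apart. With the differing genes kept in the clustering, or at resolution 1, a group of the same 93 nuclei was found again, and at resolution 0.3 they lay in a group of 121 control nuclei and 58 others.

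**Figure D2:**
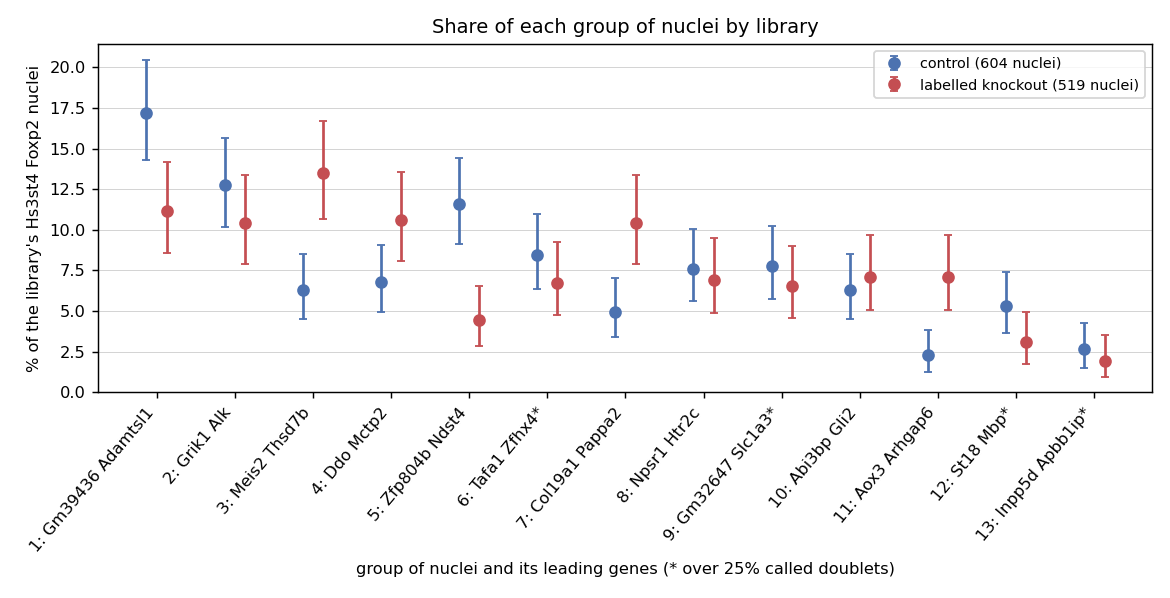
Share of each of the 13 groups among the Hs3st4 Foxp2 nuclei of the control library (blue, 604 nuclei) and the library labelled knockout (red, 519 nuclei), in percent with exact binomial 95% intervals. Group 5 is lower in the library labelled knockout (4.43% against 11.6%), and groups 3, 7 and 11 are higher.

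UMIs were next summed over the selected nuclei of each library and compared as CPM. A gene counted as different when its higher library had at least 50 UMIs and 10 CPM and the levels differed at least 2-fold, with 0.5 UMI added to each sum. Of 8631 genes with the minimum counts, 80 were higher in the library labelled knockout (0.927%) and 39 were lower (0.452%). The higher genes were led by Etv4, and the lower ones by Zfp804b. The median log2 ratio (library labelled knockout over control) of all 15367 genes with at least 20 UMIs was 0.06. The balance of directions depended on the scaling: with median-of-ratios factors 63 genes were higher and 50 lower, and with TMM factors 66 and 51, so that the higher genes made up 55.8% and 56.4% of the calls in place of 67.2%. It also differed between the sexes: in female nuclei alone 158 genes were higher and 54 lower (74.5% higher), and in male nuclei alone 67 were higher and 87 lower (43.5% higher). All 80 higher genes had a ratio above 0 in female and in male nuclei, and 38 of the 39 lower genes a ratio below 0 in both; 45 of the 80 and 19 of the 39 were at least 2-fold different in each sex.

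Because the groups took different shares of the 2 libraries, ratios were also computed with each library's groups weighted to the same makeup. Of the 80 higher genes, 58 were still at least 2-fold higher, and of the 39 lower genes, 15 were still at least 2-fold lower. No gene of either set changed sign.

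**Figure D3:**
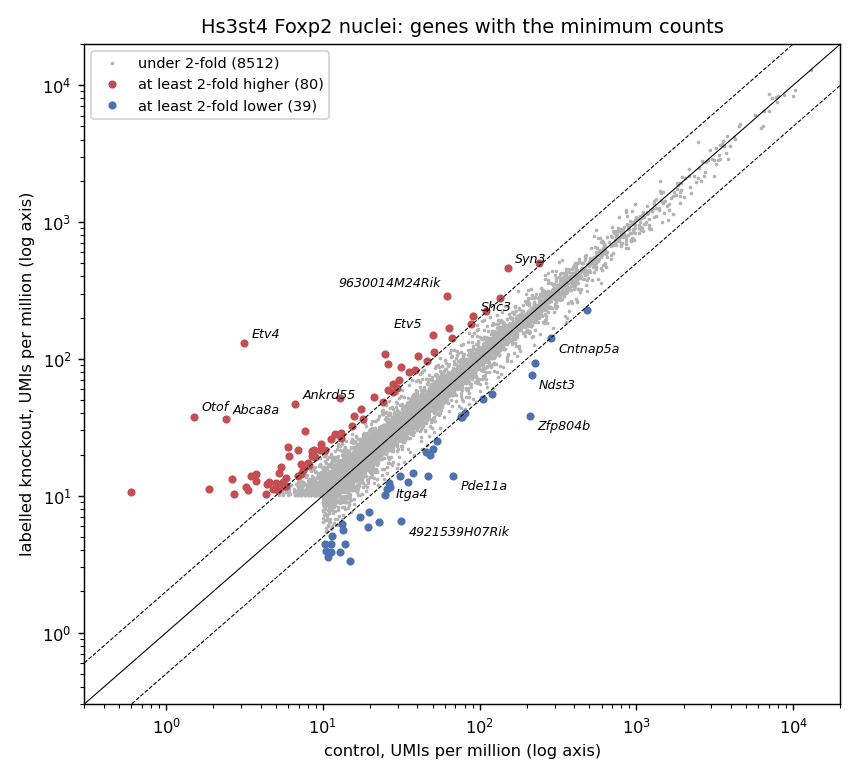
CPM of the control library (horizontal, log axis) against CPM of the library labelled knockout (vertical, log axis) for the 8631 genes with the minimum counts; the solid line marks equal levels and the dashed lines 2-fold. The 80 higher genes are in red and the 39 lower genes in blue; Etv4 (3.15 and 130 CPM) lies farthest from the line of equal levels.

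Over all selected nuclei Cic had 113 control UMIs and 136 in the other library, 8.48 and 13.8 CPM (log2 ratio 0.70, 95% counting interval 0.33 to 1.08). It was thus not lower in the library labelled knockout, and the ratio was 0.89 in female and 0.70 in male nuclei. The reads count the 3′ part of the RNA and the floxed exons are not given in the sources used here, so this level does not check the deletion. Of the partner genes, Atxn1 had 549 and 871 CPM (0.67, 0.62 to 0.71) and Atxn1l 9.45 and 11.1 CPM (0.23, −0.15 to 0.61).

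The ETS factor gene Etv4 differed most of all genes with the minimum counts. It had 42 UMIs in the 604 control nuclei and 1279 in the 519 others, or 3.15 and 130 CPM (log2 ratio 5.35, 4.92 to 5.85). An Etv4 UMI was found in 6.46% of control nuclei and 82.5% of the others. Inhibitory nuclei, which lie outside the Emx1 lineage and had a median of 17664 and 15224 UMIs, held one in 4.61% and 12.8% of cases. After thinning to 5000 UMIs per nucleus, 1.99% and 51.4% of the Hs3st4 Foxp2 nuclei and 1.42% and 6.35% of the inhibitory nuclei still did. The control share was thus close to that of inhibitory nuclei. Microglia, also outside that lineage, held an Etv4 UMI in 2.29% and 11.1% of nuclei at medians of 2391 and 1947 UMIs. Of the microglia deep enough to thin, 234 and 155 with 1467 and 1498 left out, 2.56% and 36.8% had one. After thinning, 49.1% and 54.2% of these deep nuclei also held a UMI of the synapsin gene Syn3. Among the Hs3st4 Foxp2 nuclei the Syn3 shares were 47.0% and 81.5%. RNA of neurons in these microglia was not separated, so their Etv4 share does not describe cells outside the lineage alone. Etv4 was higher in all 13 groups: the level ran from 0 to 12.6 CPM in the control, with no UMI in groups 1, 7, 8, 10, 11 and 13, and from 90.0 to 188 CPM in the library labelled knockout. The control level was highest in group 9, where doublets were common. The ratio was 5.46 in female nuclei, 5.46 in male nuclei and 5.39 with the same makeup.

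Its relatives differed less. Etv5 had 674 and 1475 UMIs, or 50.6 and 150 CPM (log2 ratio 1.57, 1.44 to 1.70). Its ratio varied over the groups from 0.43 in group 7 to 2.76 in group 5, where the control level was 30.1 CPM. Over the groups the control level ran from 24.5 CPM in group 6 to 112 in group 7, and that of the library labelled knockout from 87.6 to 206 CPM. Etv1 had 96.3 and 148 CPM (0.62, 0.51 to 0.73) and did not reach 2-fold; it was highest in group 8, with 302 and 369.5 CPM, and its ratio was highest in group 9 (1.76, 1.31 to 2.23).

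Among the feedback inhibitors, Spred3, a Sprouty-related inhibitor of the Ras pathway, had 234 and 421 UMIs, or 17.6 and 42.8 CPM (1.28, 1.05 to 1.52). Spred1 and Spred2, of the same family, had log2 ratios of 0.26 and 0.40. Spry4 had 23 and 73 UMIs (2.08, 1.41 to 2.85), which is under the minimum of 10 CPM, while Spry1 was at 0.18 and Spry2 at −0.28. The ERK phosphatase genes were sparse: Dusp4, Dusp5 and Dusp6 had 26 to 58 control UMIs and ratios of 0.69, −0.13 and 0.49, each with an interval that included 0. Shc3, a neuronal adaptor of receptor tyrosine kinases, had 1215 and 2024 UMIs, or 91.1 and 206 CPM (1.17, 1.07 to 1.28), with ratios above 0 in all 13 groups, the highest being 2.17 in group 13 and 2.10 in group 1. The cyclin genes Ccnd1 and Ccnd2 had ratios of 0.23 and 0.14.

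Over the whole list of 15 Capicua targets, 13 had a ratio above 0, where 41.0% of all genes with at least 20 UMIs were below 0. The median was 0.49, against 0.06 over all genes. This list was chosen with earlier results of these data known, so its counts are not independent evidence of direction. Of the 9 members with the minimum counts, 4 were at least 2-fold higher (Etv4, Etv5, Spred3 and Shc3) and none lower, where 0.927% of all genes were higher. The list median was 0.53 with the same makeup.

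The RefSeq promoter table (GRCm38.p6, 250 bases before to 50 bases after each gene's start) was searched for the Capicua octamers TGAATGAA and TGAATGGA on both strands. Of the 15 targets, 9 had a window. Etv4 had none, nor had the higher genes Otof and Syn3, so these were not searched. Spred3 alone of the 9 held a match, and so did 811 of 32851 windows in all (2.47%). Among genes with the minimum counts, 121 of 6687 with a window had one (1.81%). Of the 80 higher genes, 54 had a window and 4 of these a match (7.41%), and of the 39 lower genes, 27 had a window and 0 a match. The 4 are shown because they are the higher genes with a match; apart from Spred3 they were named after their values were seen. The adaptor gene Shc4 had 113 and 192 UMIs (1.20), the podocalyxin-like gene Podxl2 611 and 946 (1.07) and 4933439C10Rik 173 and 282 (1.14). The stretches below run 5′ to 3′ on the gene's strand, end at or before its annotated start and have the octamer, as it reads on that strand, in capitals. In Spred3 (chr7:29168648-29168747, minus strand) the match begins 10 bases before the start, in Shc4 (chr2:125724149-125724248, minus strand), at the first of 2 matches, 25 bases before it, in 4933439C10Rik (chr11:59505553-59505652, plus strand) 49 bases before it and in Podxl2 (chr6:88874216-88874315, minus strand) 229 bases before it.
Spred3: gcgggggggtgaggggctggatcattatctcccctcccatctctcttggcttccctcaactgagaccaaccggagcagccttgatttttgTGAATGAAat
Shc4: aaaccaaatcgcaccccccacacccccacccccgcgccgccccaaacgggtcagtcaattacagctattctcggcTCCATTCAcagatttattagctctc
4933439C10Rik: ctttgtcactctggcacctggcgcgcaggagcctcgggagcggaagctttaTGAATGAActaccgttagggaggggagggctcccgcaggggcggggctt
Podxl2: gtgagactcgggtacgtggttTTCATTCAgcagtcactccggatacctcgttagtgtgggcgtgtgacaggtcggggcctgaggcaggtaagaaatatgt
The capitals of Shc4 and Podxl2 are the reverse complements of TGAATGGA and TGAATGAA. A match is a description of the letters, not of binding.

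Of 31 genes of synaptic vesicle release with the minimum counts, 3 were at least 2-fold higher (Otof, Sv2c and Syn3) and none was lower, where 0.927% and 0.452% of all genes were, with a median over all 35 members of 0.17. Syn3, a synapsin, had 2011 and 4532 UMIs, or 151 and 461 CPM (log2 ratio 1.61, 1.53 to 1.69). It was at least 2-fold higher in each of the 13 groups, and the largest ratio was in group 3, with 195 and 933 CPM (2.25, 2.01 to 2.50). Timp3, an inhibitor of matrix proteases that overlaps Syn3 on the opposite strand in the GENCODE annotation, had 282 and 518 UMIs (1.31), and whether the counting kept strands apart is not given in the sources used here.

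Otof, which encodes the vesicle calcium sensor otoferlin of hair cells, had 20 and 371 UMIs, which is 37.7 CPM in the latter (4.62, 4.00 to 5.38). Its level in the library labelled knockout was concentrated in 2 groups, with 188 CPM in group 1 and 112 CPM in group 4 (Ddo, Mctp2, Cntnap3), and no UMI in group 8. In the control these groups had 1 and 0 Otof UMIs. An Otof UMI was found in 2.48% of control nuclei and 29.7% of the others, against 2.31% and 2.43% of inhibitory nuclei. Granule nuclei, selected on Prox1, Dsp and C1ql2 (651 and 234 nuclei), had 9.38 and 45.3 CPM of Otof (2.27, 1.92 to 2.64). Nuclei selected on CA1 genes (66 and 107 nuclei) had 4 and 20 Otof UMIs (1.86, 0.41 to 4.00). Sv2c, a synaptic vesicle glycoprotein, had 50 and 141 UMIs (1.92, 1.46 to 2.43), and 66 of the 141 were in group 3. The core release genes were close in the 2 libraries: Snap25 had a ratio of 0.13, Syt1 of −0.21, Syn1 of −0.13 and Syn2 of 0.10. These 4, and the genes within 2-fold named from the lists that follow, were chosen after their values were seen. Syt2, a fast synaptotagmin outside that list, had 46 and 138 UMIs (2.01, 1.53 to 2.54).

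Several of the highest ratios belonged to genes with few control UMIs. Trpm8, the cold-sensing cation channel gene, had 8 and 104 UMIs (4.06, 3.11 to 5.39), and 61 of the 104 were in group 4. Its share of control nuclei with a UMI, 0.83%, was under the 1.40% of inhibitory nuclei, and 3 of the 8 control UMIs were in group 4. In the other library the shares were 8.48% and 1.01%. Whether the control UMIs are background was not tested. Abca8a, a lipid transporter of the ABC family, had 32 and 355 UMIs (3.89, 3.39 to 4.48), and group 7 alone held 218 of the 355, with 16.9 and 219 CPM there. Its share of control nuclei with a UMI, 3.97%, was under the 4.11% of inhibitory nuclei, but 12 of the 32 control UMIs were in group 7. Group 7 took a larger share of the library labelled knockout, and with the same makeup the ratio was 3.42. Ednra, an endothelin receptor gene, had 25 and 110 UMIs (2.55, 1.94 to 3.26), and Trim67, a ubiquitin ligase gene of neurons, had 35 and 130 (2.32, 1.78 to 2.91), the latter spread over all groups but group 13.

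For other genes the higher level was found in most groups. Ankrd55, encoding an ankyrin repeat protein, had 89 and 457 UMIs, or 6.68 and 46.5 CPM (2.79, 2.47 to 3.14), and was at least 2-fold higher in all 9 groups with 20 or more UMIs. The long non-coding RNA 9630014M24Rik had 823 and 2852 UMIs, or 61.7 and 290 CPM (2.23, 2.12 to 2.34). Its control level ran from 7.48 CPM in group 4 to 200 CPM in group 2, while in the library labelled knockout it ran from 210 to 359 CPM, so that the groups lay closer together there. Fgf1, a growth factor that signals through FGF receptors, had 170 and 513 UMIs (2.03, 1.78 to 2.29). Gm5820, which overlaps Fgf1 on the opposite strand, had 330 and 1065 UMIs (2.13, 1.95 to 2.31), and whether reads of either gene were counted to the other was not tested. Tdrd12 had 102 and 294 UMIs (1.96) and Wdr95 348 and 907 (1.82), and both were at least 2-fold higher in most groups with 20 or more UMIs, 7 of 7 and 9 of 10. They were sparse elsewhere: Wdr95 had 11 and 3 UMIs in group 5 (0.01), and Tdrd12 had 6 and 0 in group 8. Of 18 genes picked earlier for being higher in granule, CA3 or CA1 nuclei of the same 2 libraries, all had a ratio above 0, and 11 of the 13 with the minimum counts were at least 2-fold higher, where 0.927% of all genes were; since they were chosen on these libraries, this is not independent evidence of their direction.

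Of 31 genes of the receptor tyrosine kinase to ERK pathway with the minimum counts, 1 was at least 2-fold higher and none lower, a count near the 0.927% and 0.452% of all genes, and the median over 38 members was 0.09. The one was Rasgrf2, a Ras exchange factor, with 893 and 1397 UMIs (1.08, 0.96 to 1.21), which was highest in group 3 (228 and 460 CPM) and had a ratio of 0.86 with the same makeup and 0.99 in male nuclei. Braf, a kinase of the cascade, had a ratio of −0.02 and Ntrk2, the BDNF receptor gene, 0.01.

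The counts of the receptor, channel, transcription factor and guidance lists that follow are near the shares over all genes, 0.927% higher and 0.452% lower, and set none of the lists apart. Among 22 glutamate receptor genes with the minimum counts, Grin2d, an NMDA receptor subunit gene, was higher with 96 and 167 UMIs (1.23, 0.87 to 1.61), none was lower, and the median of 24 members was −0.21 (−0.09 with the same makeup). Gria4 had the lowest ratio, −0.56. None of 12 GABA receptor, 35 potassium and HCN channel or 24 sodium and calcium channel genes with the minimum counts reached 2-fold in either direction, and the medians were −0.06, 0.04 and 0.03.

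Of the factors that define cortical neuron types, 0 of 22 with the minimum counts reached 2-fold, and the median over 27 was −0.09. Sox5 had 11432 and 11562 UMIs (0.45, 0.42 to 0.49; 0.35 with the same makeup), and Nfia 2744 and 1511 (−0.42). Of the axon guidance genes, 0 of 38 did, with a median of 0.09 over 53 members. Efna5, an ephrin ligand, had the ratio farthest from 0 among those with the minimum counts, at −0.81 (−0.67 with the same makeup). The netrin-G gene Ntng1 was at −0.79, and at −0.08 with the same makeup. Of the immediate early and handling genes, 11 of 14 with at least 20 UMIs had a ratio below 0, against 41.0% of all genes with that number, and the median was −0.53. Egr1 had 78 and 14 UMIs. None of the 5 with the minimum counts reached 2-fold, where 0.927% and 0.452% of all genes did.

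**Figure D4:**
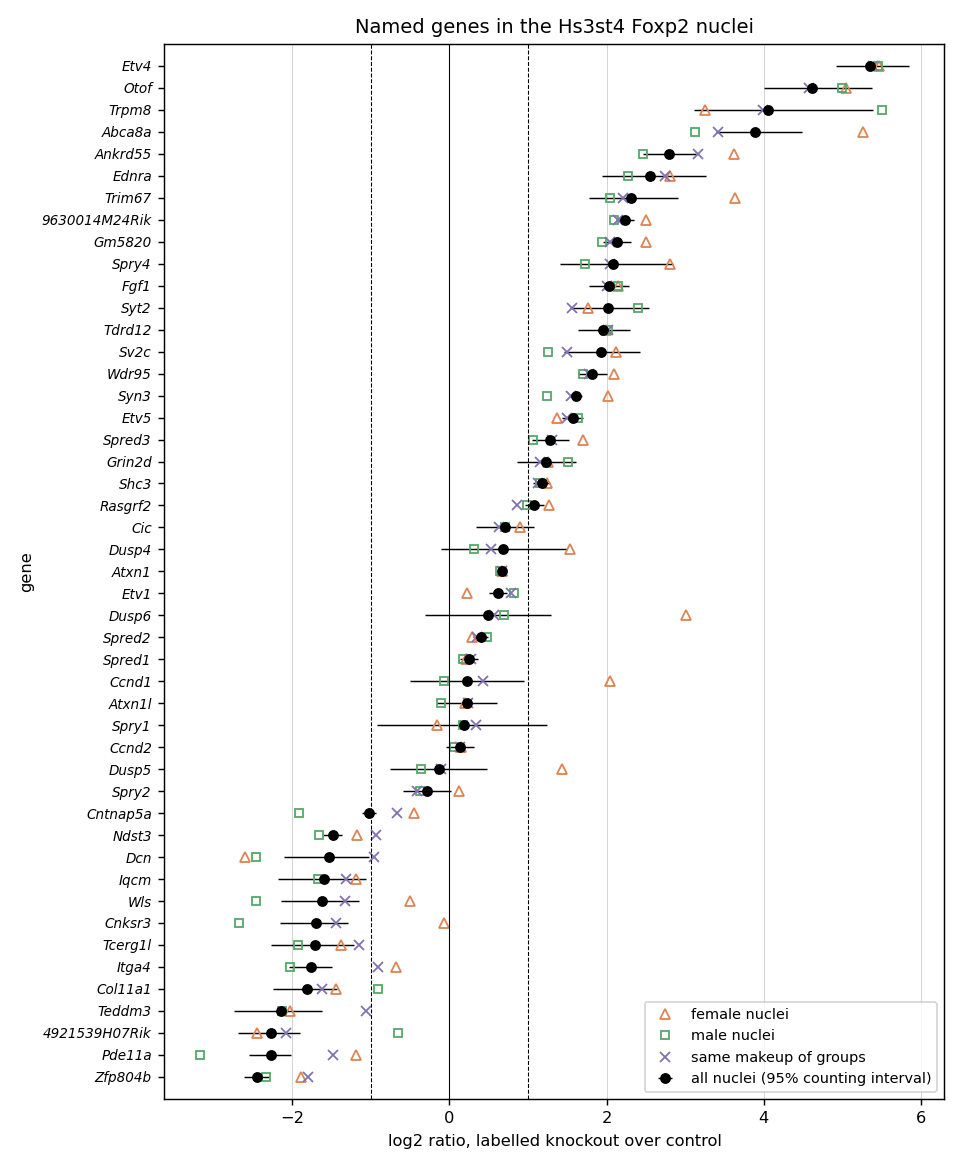
Log2 ratio of the library labelled knockout over the control for the 47 named genes, over all Hs3st4 Foxp2 nuclei with the 95% counting interval (black), in female nuclei (triangles), in male nuclei (squares) and with the same makeup of groups (crosses); dashed lines mark 2-fold. For the lower genes the crosses lie nearer to 0 than the black points, while for Etv4, Syn3 and Shc3 they nearly coincide.

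Of the 39 lower genes, 24 had their highest control level in group 5, as did 590 of the 8631 genes with the minimum counts (6.84%). Since group 5 was a smaller part of the library labelled knockout, this count bears on how the 39 were chosen and was not tested; the other 15 were highest in other groups, and 15 of the 39 stayed at least 2-fold lower with the same makeup. Zfp804b, a zinc finger gene, had 2794 and 377 UMIs, or 210 and 38.3 CPM (log2 ratio −2.45, −2.61 to −2.30), and 73.8% of its control UMIs came from group 5. Within group 5 it had 1036 and 285 CPM (−1.86, −2.09 to −1.64), and with the same makeup the ratio was −1.80, so it was lower within the group as well as over the class. Pde11a, a cyclic nucleotide phosphodiesterase gene, had 906 and 138 UMIs (−2.27, −2.55 to −2.02), with 349 and 96.2 CPM within group 5 (−1.85, −2.27 to −1.47). Its ratio was −1.18 in female and −3.17 in male nuclei, and −1.48 with the same makeup.

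Other lower genes with a large part of their control UMIs in group 5 had ratios nearer 0 once the makeup was equal. Itga4, an integrin subunit gene, had 625 and 136 UMIs (−1.76), and with the same makeup the ratio was −0.91; it was −0.67 in female and −2.02 in male nuclei. Ndst3, which encodes an enzyme that modifies heparan sulfate, had 2853 and 754 UMIs (−1.48) and −0.93 with the same makeup; its ratio was −0.85 in group 5 and −2.82 (−3.81 to −2.07) in group 1, and it was below 0 in 12 of 13 groups. Teddm3 had 199 and 33 UMIs (−2.14), 185 of the 199 were in group 5, and the ratio was −1.06 with the same makeup. Cntnap5a, a neurexin-related adhesion gene, was the only one of 60 adhesion genes with the minimum counts that was 2-fold lower, near the 0.452% of all genes, with 3819 and 1393 UMIs (−1.02, −1.11 to −0.93), −0.66 with the same makeup, −0.45 in female and −1.91 in male nuclei. None of the 60 was 2-fold higher, where 0.927% of all genes were. Wls, needed for Wnt secretion, was at −1.62 and Tcerg1l at −1.71, and at −1.33 and −1.15 with the same makeup; 49.2% and 49.4% of their control UMIs were in group 5. Wls was at −0.50 (−1.63 to 0.57) in female nuclei, with 18 and 14 UMIs, and at −2.46 in male nuclei. The extracellular matrix gene Dcn, with 63 of its 150 control UMIs in group 5 and 54 in group 6, was at −1.53, and at −0.96 with the same makeup.

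Some lower genes had most of their control UMIs outside group 5. The non-coding RNA 4921539H07Rik, which overlaps 1700007F19Rik on the opposite strand, had 421 and 64 UMIs (−2.27, −2.68 to −1.90) and −2.07 with the same makeup; its ratio was −2.45 in female and −0.65 in male nuclei, and 40.6% of its control UMIs were in group 6, where 46.5% of nuclei were called doublets. Col11a1, a fibrillar collagen gene, had 302 and 63 UMIs (−1.81, −2.24 to −1.43) and was lower in all 5 groups with 20 or more UMIs, among them group 1 (36.1 and 9.23 CPM), which held 0 called doublets. Its ratio was −1.44 in female and −0.91 in male nuclei, and −1.15 without the 4 groups rich in doublets. Cnksr3, a scaffold protein gene, had 257 and 58 UMIs (−1.70), but 78.2% of the control UMIs were in group 12, the group with myelin genes. Its ratio was −0.06 in female and −2.67 in male nuclei, and −0.68 without the 4 groups rich in doublets. Iqcm had 144 and 35 UMIs (−1.59).

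**Figure D5:**
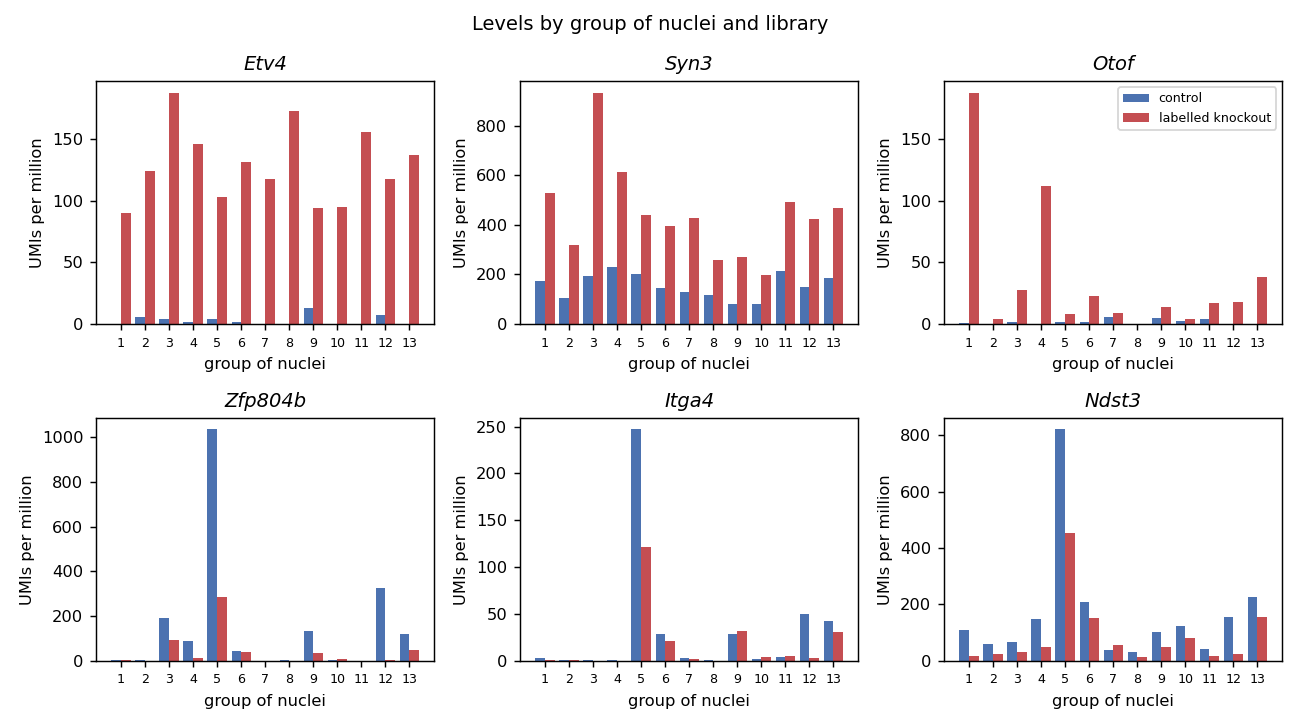
CPM (UMIs) of 6 genes in each of the 13 groups, control in blue and library labelled knockout in red (bars start at 0; 1 value per group and library). Etv4 and Syn3 are higher in the library labelled knockout in every group, Otof mainly in groups 1 and 4, and Zfp804b, Itga4 and Ndst3 are highest in group 5 of the control.

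Markers of other cell types were set beside these counts. Summed over the list, the 5 oligodendrocyte markers had 259 control CPM and 246 in the other library, the 6 astrocyte markers 611 and 556, the 5 microglia markers 72.6 and 66.9, and the 5 inhibitory markers 9.001 and 5.49. Slc1a2 alone gave 553 and 506 CPM of the astrocyte sums. It was found in 92.1% and 96.7% of the selected nuclei, so those sums do not measure astrocyte RNA. The 5 granule cell markers had 70.4 and 41.8 CPM. Gad1, Gad2, Prox1, Dsp and C1ql2 of the inhibitory and granule cell lists were capped by the rule, while Stxbp6, which the rule did not use, had 607 and 204 UMIs (−1.13). Mitochondrial genes summed to 223 and 394 CPM, with 12 of 12 ratios above 0 among genes with at least 20 UMIs (mt-Nd6, with 8 and 2 UMIs, was below 0), a median of 1.55 in female and 0.28 in male nuclei. Among them mt-Nd5, with 69 and 108 UMIs (1.08), was one of the 80 higher genes, which were 79 without sex-linked and mitochondrial genes. Whether the mitochondrial level bears on the other gene counts was not tested. Of the mossy cell markers, Drd2 had no UMI and Calb2 and Glipr1 had 6 to 18 per library. Ociad2 of that list had 730 and 724 UMIs, and Ajap1 264 and 75 (−1.37). Of the thalamic markers, Gbx2 had no UMI in these or in the other glutamatergic nuclei. Tcf7l2 had 224 and 132 UMIs, Lef1 33 and 4, and Prkcd 15 and 14. Slc17a6 of that list, which the rule also used, went the other way with 167 and 234 UMIs (0.92, 0.63 to 1.22). The Cajal-Retzius markers Reln and Ndnf had 192 and 80, and 21 and 27 UMIs. Without the 4 groups rich in called doublets the counts were 107 higher and 65 lower; 73 of the 80 higher and 32 of the 39 lower genes were among them.

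The same genes were then read in other nuclei of both libraries. Of the 80 higher genes, 76 had a ratio above 0 in the other glutamatergic nuclei (14731 and 12210 nuclei) and 37 were at least 2-fold higher there, where 63.2% and 0.915% of the 8631 genes with the minimum counts were. In inhibitory nuclei (997 and 988) the counts were 48 and 3, where 61.5% and 0.174% of all 8617 of those genes with at least 20 UMIs were. In microglia (1701 and 1653), 61 of the 73 with at least 20 UMIs were above 0 and 20 at least 2-fold higher, against 58.9% and 0.747% of 8563 genes. In the nuclei selected on the subicular gene Fn1 (95 and 155), 64 of 65 were above 0 and 42 at least 2-fold higher, against 58.0% and 3.93% of 8495 genes. Of the 39 lower genes, 29 and 31 had a ratio below 0 in the other glutamatergic and inhibitory nuclei, and 3 and 2 were at least 2-fold lower, where 36.8% and 38.5% of all genes were below 0 and 0.104% and 0.0696% at least 2-fold lower. In microglia 8 of 38 were at least 2-fold lower, against 0.736% of all genes. In the Fn1 nuclei 8 of 34 were at least 2-fold lower and 5 at least 2-fold higher, the opposite direction, against 1.14% and 3.93% of all genes. Etv4 had log2 ratios of 4.27 in the other glutamatergic nuclei and 1.89 in inhibitory nuclei, and Etv5 of 2.04 and −0.07. In microglia Etv4 and Etv5 were at 2.87 and 1.10. A Syn3 UMI was found in 12.1% and 10.6% of the microglia, and RNA of neurons in them was not separated. Syn3 had a ratio of 0.76 in the other glutamatergic nuclei and −0.16 in inhibitory nuclei, against 1.61 in the Hs3st4 Foxp2 nuclei. Rasgrf2 and Sv2c were at −0.21 and −0.15 in the other glutamatergic nuclei, against 1.08 and 1.92. In the Fn1 nuclei the ratios of these 3 genes were above those in the Hs3st4 Foxp2 nuclei, with Syn3 at 2.20, Rasgrf2 at 1.94 and Sv2c at 2.11. Zfp804b was at −0.22 in the other glutamatergic and −0.28 in inhibitory nuclei, against −2.45, at −1.56 in microglia, and at 3.03 in the Fn1 nuclei (42 and 506 UMIs), the opposite direction. In the granule nuclei it was at −1.50 (1240 and 155 UMIs), and in the CA1 nuclei at 0.39 (47 and 78 UMIs). The RNA 4921539H07Rik was lower in the other glutamatergic, inhibitory, microglial and Fn1 nuclei, at −2.77, −3.02, −4.56 and −2.02. The differences between the classes were not tested.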

How the data were processed

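Single-nucleus RNA was counted by the authors with Cell Ranger 8.0.1 against mm39, per the file headers and the submitters' processing notes, and the deposited values are raw UMI counts per gene and nucleus. Barcodes with at least 500 genes and at most 5% mitochondrial UMIs were kept. The members and gene lists were chosen with earlier results of these data known. Named genes were up to 12 in each direction with the largest ratio among genes past the size rule and the same sign in both sexes (sex-linked and mitochondrial genes left out), up to 6 members of each list past that rule, Cic and all Capicua targets. UMIs were summed per library and compared as CPM in Python 3.11.15 (scipy 1.17.1, scanpy 1.11.5); the computation was tested on simulated data. Nuclei with at least 2 Xist UMIs and 0 Y-linked UMIs were called female, and those with 0 Xist and at least 1 Y-linked UMI male. Median-of-ratios and edgeR 4.0.16 TMM factors were alternatives. Doublets were marked with Scrublet at an expected rate of 0.1 and kept. Groups came from 2000 variable genes, 20 components, 15 neighbours and Leiden clustering (leidenalg 0.10.2) at resolution 0.5. Overlaps were taken from GENCODE, whose annotation held 31961 of 33696 gene identifiers (94.9%). No position on mm39 is given, since the reference used is GRCm38. Some genes are not reported here.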

Additional observations from a re-analysis of the deposited data

Results flagged for a closer look

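The share of Hs3st4 Foxp2 nuclei moved in opposite directions in the sexes. Among female nuclei it was 0.765 percentage points higher in the library labelled knockout than in the control (2.93% against 2.17%), and among male nuclei it was 0.769 points lower, a difference of −0.769 (2.06% against 2.83%). Female nuclei came from 1 mouse per pool and male nuclei from 2, and the difference between the sexes was not tested.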

How the results depend on the processing

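The count of higher genes (80) was 269 with a minimum of 20 UMIs and none on CPM and 158 in female nuclei alone. The count of lower genes (39) was 216 with that minimum, 87 in male nuclei alone, 65 without the groups over 25% doublets, 18 without the group led by Zfp804b and 15 with the same makeup of groups; the last 3 alternatives were chosen after seeing the data. The list median of the Capicua targets (0.49 over 15 members) was 1.24 in female nuclei, over the 11 members with at least 20 UMIs there; over all selected nuclei the median of those 11 was 0.62. It was 0.74 over the 15 members with a minimum of 40 rule UMIs. The share of nuclei in the control was 2.69% with a minimum of 10 rule UMIs, 1.91% with 40, 2.17% among female nuclei, 2.83% among male nuclei and 1.36% after thinning; in the library labelled knockout the values were 2.56%, 1.55%, 2.93%, 2.06% and 1.81%. The cause of these shifts was not tested. Of 462 values of the 33 named genes past 2-fold under 14 alternatives, 0 changed sign and 441 were still at least 2-fold in the same direction. These counts were in part fixed by the choice of genes. Those with the largest ratios were named only if both sexes had the same sign, and the alternatives drew largely on the same UMIs. Of 196 values of named genes within 2-fold, 17 had the other sign, in Atxn1l, Ccnd1, Ccnd2, Dusp4, Dusp5, Spry1 and Spry2; Dusp5 reached 1.43 in female nuclei alone. No paired analysis was possible because each genotype has 1 library. Over all selected nuclei the counting intervals of Dusp4, Dusp5, Dusp6, Spry1, Spry2, Ccnd1, Ccnd2 and Atxn1l included 0. In female nuclei those of Dusp5, Dusp6 and Ccnd1 did not, at 1 to 6 control UMIs.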
